A study of Mus musculus with 8 samples.

Results

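Replication timing of the active X chromosome (Xa) was compared between SmcHD1 mutant (mut) and wild-type (wt) mouse embryonic fibroblasts (MEFs). The chromosome was divided by the authors into 343 bins of 500 kb, and 279 of them were kept for this comparison. A bin was dropped where the wt or the mut Xa track held a value that recurred 20 or more times in that track, or a score outside -3 to 3. The rule uses the level of each score and not the difference between the tracks. It still dropped some bins in which the tracks lay far apart, so the likeness of the tracks is described for the kept bins only.

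The cells were female clonal MEFs from F2 embryos of an interspecific cross, with FVB (M. m. domesticus) as 1 parental genome and M. m. castaneus as the other. In both genotypes the FVB X was taken as active and the castaneus X as the inactive X (Xi), from the study's text and the names of the tracks, since a sample label calls both of them Xa. Mut cells carried the MommeD1 allele, a point mutation that abolishes SmcHD1, and wt cells carried the wild-type gene. Each genotype was represented by 1 clone, Wt2A1 or Mut5A6, so that genotype and clone cannot be told apart. Asynchronous cells were sorted by DNA content into G1 phase and S phase, giving 2 libraries of each phase per genotype and 8 samples in all. The replicates were joined in the deposited tracks, which hold 1 score per bin and genotype. No spread between replicates, no test and no p-value could therefore be had, and the read depth is unknown. Nothing in a DNA copy number score reports cell identity, so the fibroblast label was taken as given.

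A chromosome copies its DNA in a fixed order during S phase, in domains that reach up to several megabases. In mammals gene-rich, GC-rich and transcribed chromatin tends to replicate early, and gene-poor chromatin at the nuclear periphery tends to replicate late. The Xi of female cells is an exception, since most of it replicates late. SmcHD1 is a non-canonical SMC protein that is enriched on the Xi and takes part in its silencing. The Xa of the same nuclei is the chromosome on which the effect of its loss can be set beside an X that is not silenced.

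A score is the Z-score of the ratio of S-phase to G1-phase reads, and a higher score means earlier replication. Over the kept bins the deposited Xa scores averaged -0.25 ± 1.12 in wt and -0.38 ± 1.02 in mut (SD over 279 bins). Each track was rescaled to mean 0 and SD 1 over these bins before the tracks were compared, and all Xa values below are rescaled scores unless called deposited. A bin above 0 is called early and a bin at or below 0 late. The rescaling removes any shift or stretch that affects the whole chromosome, so that only changes in the relative order of regions can be seen.

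Promoters show how the sequence of early and late domains differs. The bases just upstream of the gene start are shown for 4 genes, from RefSeq on build GRCm38.p6 (mm10), 5′ to 3′ on the gene's strand, with CpG dinucleotides in capitals. Atp6ap2 encodes a subunit associated with the vacuolar proton pump and lies in the shared early domain with the highest mean of both tracks. Its promoter (chrX:12587509-12587758, plus strand) held 20 CpG in 250 bases, and its bin scored 1.47 in wt and 1.83 in mut. Pou3f4, a transcription factor gene of the inner ear and brain, lies in the shared late domain with the lowest mean of both tracks, and its promoter (chrX:110814129-110814279, plus strand) held 3 CpG in 151 bases. Phex encodes an endopeptidase of phosphate homeostasis and lies in the run of bins with the largest shift to a lower score in mut (chrX:157415313-157415536, minus strand, 2 CpG in 224 bases). Nap1l3, a nucleosome assembly protein gene, lies in a run of bins that scored higher in mut (chrX:122397402-122397635, minus strand, 5 CpG in 234 bases).
Atp6ap2: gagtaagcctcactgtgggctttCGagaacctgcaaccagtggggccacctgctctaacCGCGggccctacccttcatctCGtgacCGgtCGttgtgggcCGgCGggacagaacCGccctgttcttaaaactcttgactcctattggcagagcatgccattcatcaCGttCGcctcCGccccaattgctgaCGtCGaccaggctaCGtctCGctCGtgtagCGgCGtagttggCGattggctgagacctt
Pou3f4: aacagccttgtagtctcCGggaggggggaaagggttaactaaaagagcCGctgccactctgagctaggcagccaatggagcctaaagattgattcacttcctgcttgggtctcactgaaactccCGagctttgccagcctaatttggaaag
Phex: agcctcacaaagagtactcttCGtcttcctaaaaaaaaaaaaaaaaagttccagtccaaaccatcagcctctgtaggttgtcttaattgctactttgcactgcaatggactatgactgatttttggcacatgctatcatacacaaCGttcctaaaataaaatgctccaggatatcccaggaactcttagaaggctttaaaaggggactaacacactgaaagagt
Nap1l3: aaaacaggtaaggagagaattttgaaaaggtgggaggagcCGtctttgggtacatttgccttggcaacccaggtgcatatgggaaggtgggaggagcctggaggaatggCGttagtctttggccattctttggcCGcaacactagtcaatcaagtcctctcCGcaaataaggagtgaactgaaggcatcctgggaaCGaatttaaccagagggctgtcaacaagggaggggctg

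The 4 sequences are examples, and the CpG content of promoters was therefore counted over the chromosome. For this count the whole 250 bases upstream of the RefSeq start were used, without the cut at the GENCODE start made for the sequences shown, and they were found for 746 of 948 protein-coding genes. The median number of CpG in it was 6 over all of these, 9 over the 341 promoters in early domains shared by both genotypes and 3 over the 66 in shared late domains. At least 10 CpG were present in 36.2% of all the promoters, in 49.0% of those in shared early domains and in 19.7% of those in shared late domains. In bins later in mut the median was 8 over 77 promoters, with at least 10 CpG in 40.3%, so that Phex lies on the low side there, and in bins earlier in mut it was 5 over 50 promoters, with at least 10 CpG in 30%. The motif searched was CG, which reads the same on both strands.

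The bins that could be scored set the limits of the comparison. Of the 64 dropped bins, 30 held a recurring value in either track (21 in both), and the other 34 lay outside the limits in either track. Kept deposited scores ran from -2.81 to 2.94 in wt and from -2.78 to 2.91 in mut, and the nearest dropped values were 3.15 and -3.09 in wt and 3.15 and -3.01 in mut. Between 23.5 and 55 Mb 29 of 63 bins were dropped, and between 112 and 133.5 Mb 19 of 43. The 57 dropped bins with known sequence had a median of 11.0% of their 31-base words occurring at a single place on the X, against 81.0% in the kept bins. The kept bins held the starts of 831 of the 948 protein-coding genes.

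Dropped bins left 23 unbroken stretches of kept bins, of which 4 were at least 10 bins long. These long stretches covered 5.5 to 23.5 Mb (36 bins), 55 to 112 Mb (114 bins), 133.5 to 148 Mb (29 bins) and 149.5 to 170 Mb (41 bins), 220 bins in all. The other 59 kept bins lay in 19 short stretches, 8 of which were single bins. The kinds of stretch differed in how smooth the tracks were. In the long stretches the scatter of a bin around the mean of its neighbours, scaled to the SD of a single score, was 0.50 for wt and 0.54 for mut, and neighbouring bins correlated at r = 0.61 and 0.56 (216 pairs of neighbours). In the short stretches the scatter was 0.84 and 1.20, and neighbours correlated at only 0.03 and 0.01 (40 pairs). The scatter around neighbours includes real domain edges, and it served here as an upper limit to the error of a score in place of replicates. Results are therefore given for both kinds of stretch.

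The Xa had a similar pattern of early and late regions in wt and in mut MEFs where the tracks were smooth. Over the long stretches the wt and mut scores correlated at r = 0.72 (Spearman's rho 0.76, 220 bins), and over the short stretches at 0.30 (0.32, 59 bins). Over all 279 bins r was 0.56 and rho 0.62. The points of these correlations are bins of 1 chromosome that share base composition, gene content and the score of their neighbours, so r is given as a description. It was highest in the first long stretch at 0.86 and lower in the others, at 0.70, 0.70 and 0.51 along the chromosome.

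**Figure D1:**
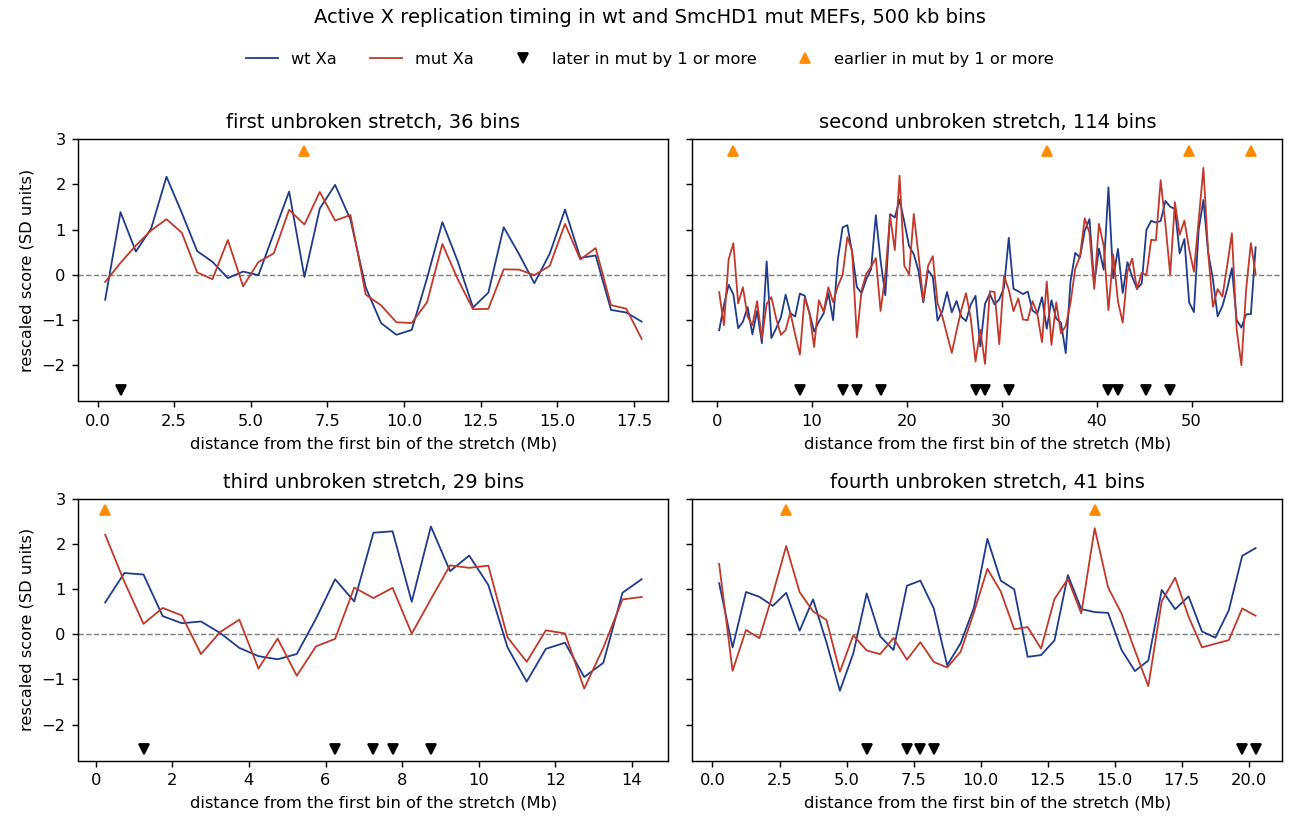
Rescaled Xa score (SD units, y axis) of wt (blue) and mut (red) MEFs in 500 kb bins along the 4 long unbroken stretches, against the distance in Mb from the first bin of each stretch. Triangles mark bins whose scores differed by 1 or more: 23 lower in mut (black, pointing down) and 8 higher in mut (orange, pointing up). The tracks rise and fall together in the first stretch (r = 0.86) and part most in the fourth (r = 0.51).

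Most bins were also in the same state. Both tracks were early or both late in 212 of 279 bins (76.0%, exact binomial 95% interval 70.5 to 80.9%). The interval counts bins as independent, which neighbours are not, so it is too narrow. The share was 80.5% in the long stretches (177 of 220) and 59.3% in the short ones (35 of 59). Splitting on 1 genotype and reading the other gave the same picture in the long stretches. The 106 bins that were early in wt averaged 0.61 ± 0.72 in mut (SD over bins), and 80.2% of them were early there. The 114 bins that were late in wt averaged -0.57 ± 0.65 in mut, where 19.3% were early. Split on mut, 79.4% of the 107 early bins and 18.6% of the 113 late bins were early in wt. In the short stretches 45.0% of the 40 bins late in wt were early in mut, while 21.4% of the 28 bins late in mut were early in wt.

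Other tracks of the same cells give a scale for this likeness. Over the 269 bins that passed the filters on the Xa and the Xi of both genotypes, r between wt and mut was 0.56 for the Xa and 0.07 for the Xi. For reads not split by allele, which contain the reads of the Xa and of the Xi, it was 0.89. Over the 219 of these bins in long stretches the values were 0.72, 0.17 and 0.88 in the same order. The unsplit track is made from more reads than either allele, and the part of read number in its higher value was not tested.

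Early bins were richer in genes and GC than late bins in both genotypes. The 98 bins early on both tracks had medians of 0.99 in wt and 0.83 in mut, a median GC content of 40.7% and a median of 4 gene starts, and 5 of them held no gene start. The 114 bins late on both tracks had medians of -0.80 and -0.79, a median GC content of 37.8% and a median of 1 gene start, and 44 of them held none. Their soft-masked repeat content also differed, with a median of 38.0% in shared early and 50.4% in shared late bins. Over the long stretches the score correlated with GC content at rho = 0.59 in wt and 0.65 in mut, and with the number of gene starts at 0.54 and 0.55. With repeat content rho was -0.52 in wt and -0.51 in mut.

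The difference between mut and wt hardly followed these features. Over the long stretches it correlated with GC content at rho = 0.08 and with gene starts at 0.02. Bins with at least 2 gene starts (154) averaged 0.42 in wt and 0.38 in mut, and bins with fewer (125) averaged -0.52 in wt and -0.47 in mut. The mean difference was -0.04 in the gene-rich and 0.05 in the gene-poor bins. The order of these means turned when the analysis was limited to the long stretches, and again when a single gene start made a bin gene-rich.

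The regions where both tracks stayed early or late over at least 3 neighbouring bins are described as shared domains. There were 15 shared early domains (69 bins, 34.5 Mb, each 1.5 to 4 Mb long) and 11 shared late domains (71 bins, 35.5 Mb, each 1.5 to 7.5 Mb long), and together they took up 50.2% of the kept bins. The early domains held 415 gene starts, 12.0 per Mb, and the late ones 80, or 2.25 per Mb. Their mean GC contents over bins did not overlap, at 39.8 to 42.7% in early and 36.9 to 39.5% in late domains. Single bins did overlap, at 36.9 to 46.8% over all shared early bins and 34.9 to 47.5% over all shared late bins. Domain means ran from 0.60 to 1.58 in wt and from 0.52 to 1.45 in mut for the early, and from -1.34 to -0.49 and from -1.18 to -0.50 for the late domains.

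Domains were ranked by the mean of both tracks. The highest shared early domain, at 12.5 to 14 Mb, averaged 1.56 ± 0.39 in wt and 1.45 ± 0.34 in mut (SD over 3 bins). It holds the starts of Atp6ap2, 1810030O07Rik, Med14, a subunit of Mediator, Usp9x, a deubiquitinase, and Ddx3x, an RNA helicase. Its 3 bins scored 1.47, 1.99 and 1.22 in wt and 1.83, 1.20 and 1.32 in mut, so that the domain was early in both genotypes with the order of its bins changed. The next, at 140 to 144 Mb, averaged 1.58 ± 0.69 in wt and 1.02 ± 0.51 in mut over 8 bins. Its first genes are Nup62cl, Pih1h3b, Frmpd3, Prps1, which makes the phosphoribosyl precursor of nucleotides, and Tsc22d3, a glucocorticoid-induced regulator. It was the early domain with the largest decrease, a difference of -0.55. The third, at 47.5 to 49 Mb, averaged 1.31 ± 0.76 and 1.22 ± 0.20 over 3 bins of a short stretch. It begins with Smarca1, an ISWI chromatin remodeller, Ocrl, an inositol phosphatase, Apln, Xpnpep2 and Sash3.

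Among all 15 early domains 11 averaged lower in mut than in wt, with differences from -0.55 to 0.56. The largest increase was at 162.5 to 164.5 Mb, from 0.71 ± 0.40 to 1.27 ± 0.79 over 4 bins, a domain that begins with Reps2, Rbbp7, a histone-binding protein, Txlng, Syap1 and Ctps2. The most gene-dense early domain, at 73 to 76.5 Mb, held 79 gene starts and averaged 0.94 ± 0.56 in wt and 0.86 ± 0.78 in mut over 7 bins. In both of these domains the difference was smaller than the larger of the SDs over bins.

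By the mean of both tracks the lowest shared late domain, at 109.5 to 111 Mb, averaged -1.02 ± 0.15 in wt and -1.18 ± 0.84 in mut over 3 bins and held a single gene start, that of Pou3f4. The domain at 43.5 to 45 Mb averaged -1.34 ± 1.11 and -0.67 ± 0.29 over 3 bins of a short stretch, with Tex13c1, Dcaf12l2 and Dcaf12l1. The domain at 57 to 60 Mb averaged -1.10 ± 0.31 and -0.83 ± 0.41 over 6 bins. Its first genes are Brs3, Htatsf1, Vgll1, Cd40lg, the ligand by which T cells activate B cells, and Arhgef6. The longest late domain ran from 78 to 85.5 Mb over 15 bins, averaged -0.72 ± 0.33 in wt and -1.03 ± 0.60 in mut, and held the start of Dmd (dystrophin), whose bin scored -1.58 and -1.22. It held 14 gene starts over 7.5 Mb. Of the 11 late domains 6 averaged lower in mut.

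The borders between early and late regions were called on the running mean of 3 bins, within unbroken stretches of at least 6 bins. Wt Xa had 34 borders and mut Xa 42. A mut border of the same direction lay within 1 bin of 21 wt borders, which is 61.8% of the wt borders (exact binomial 95% interval 43.6 to 77.8%) and 50.0% of the mut borders. The interval counts the borders of 1 chromosome as independent, which they are not, and reflects no replicates. Of the 21, 7 lay at the same bin boundary in both genotypes, 9 lay 1 bin further along the chromosome in mut and 5 lay 1 bin less far. The early side was shorter in mut at 9 borders and longer at 5. A displacement of 1 bin is the smallest that can be seen.

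The size of the score change across a border was measured as the mean of the 2 bins on its early side minus that of the 2 bins on its late side. This step could be measured at 32 wt borders, where the median was 1.27 in wt and 0.93 in mut. The wt steps were used to place the borders, and the mut steps were not. The mut step had the sign of the border at 29 of the 32, and at 11 of the 12 wt borders with no matching mut border. The matched borders were chosen for a mut border nearby, so their own count says nothing further. Read the other way, at 39 mut borders the median step was 0.87 in mut and 0.78 in wt, with the sign of the border at 30 of the 39 in wt. The median wt step was 1.30 at matched and 1.04 at unmatched borders.

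**Figure D2:**
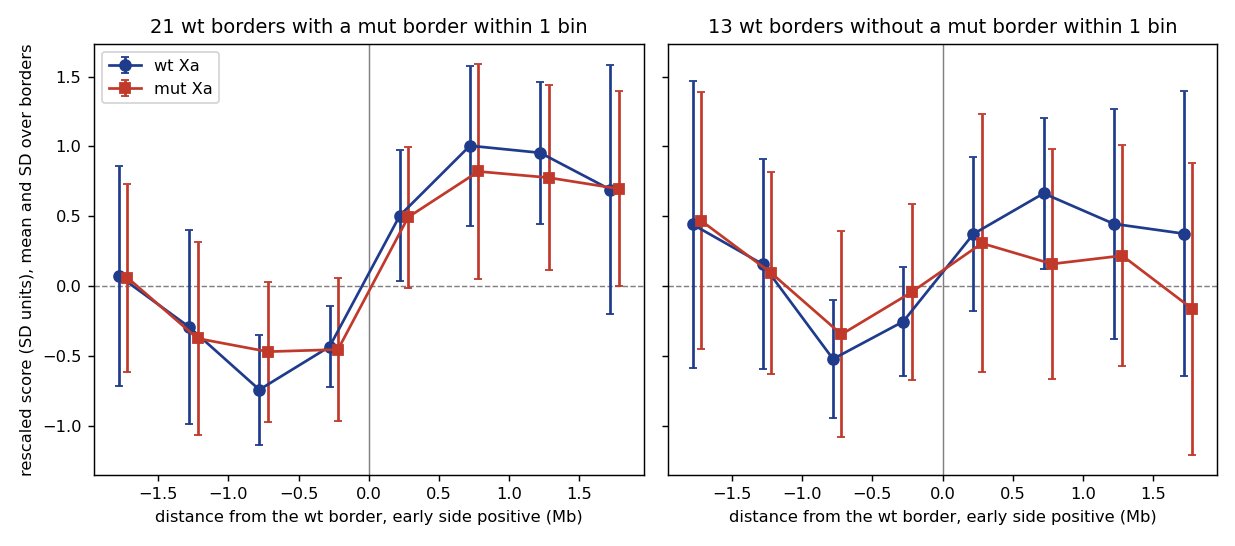
Mean rescaled Xa score (SD units, y axis) of wt (blue circles) and mut (red squares) against the distance from the wt border in Mb, turned so that the early side is positive. Bars are the SD over borders, of which 12 or 13 (without a mut border within 1 bin, right) and 19 to 21 (with one, left) were measured at each distance. On the left both genotypes cross 0 at the border, from -0.43 (wt) and -0.45 (mut) to 0.51 and 0.50, and on the right the mut track goes from -0.04 to 0.31. The panels were split by whether mut had a border nearby, so this contrast of the mut tracks follows from the split.

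The 4 steepest shared borders, ranked by the mean of the wt and mut steps, all ran from early to late along the chromosome. At 14 Mb the score fell by 2.28 in wt and by 1.82 in mut, from bins with Usp9x, Ddx3x, Nyx, Cask and Gpr34 to a bin with H2al1n alone and a bin with no gene start. The mut border was called at 14.5 Mb here, although the unsmoothed scores passed 0 at 14 Mb in both genotypes (1.22 to -0.28 in wt, 1.32 to -0.44 in mut). At 144 Mb the score fell by 2.08 in wt and by 1.83 in mut, from bins with Rtl9, Chrdl1, Pak3, Capn6 and Dcx, the microtubule-binding protein of migrating neurons, to bins with Alg13 and Trpc5. At 49 Mb it fell by 1.68 in wt and by 2.0 in mut, and at 107 Mb, downstream of Atp7a, a copper pump, and Pgk1, a glycolytic enzyme, by 1.58 in wt and by 1.94 in mut. The last 2 borders lay at the same bin boundary in both genotypes.

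The bins where the tracks parted are those whose rescaled scores differed by 1 or more. By this rule 29 of 279 bins (10.4%) were later in mut and 28 (10%) were earlier, 20.4% in either direction. The near-equal numbers hold for this scaling. With each track centred on its median and divided by its median absolute deviation, 43 bins were later and 22 earlier, and with the scores as deposited 48 were later and 27 earlier. The members are bins, and these shares are the background for all counts of bins and genes below. Expressed against the scatter around neighbours, the limit of 1 is above the value of 0.74 that the scatters of wt and mut give together in the long stretches. In the short stretches the same value was 1.47, which exceeds the limit. The SD of mut minus wt over all long-stretch bins, 0.68, was itself below 0.74, so the spread of the differences there was no larger than this upper limit to the error allows, and single changed bins were not told apart from it.

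The directions were spread unequally over the stretches. In the long stretches 23 of 220 bins (10.5%) were later and 8 (3.64%) earlier in mut. In the short stretches 6 of 59 (10.2%) were later and 20 (33.9%) earlier. The mean difference was -0.12 in the long and 0.45 in the short stretches, with SDs over bins of 0.68 and 1.48. The imbalance depends on the scale. With each track rescaled over the 220 bins of the long stretches alone, which moved both the centre and the SD, 22 were later and 17 earlier. Differences of neighbouring bins were nearly unrelated, at r = 0.09 in the long and -0.16 in the short stretches, against 0.61 and 0.56 for the scores themselves in the long stretches.

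**Figure D3:**
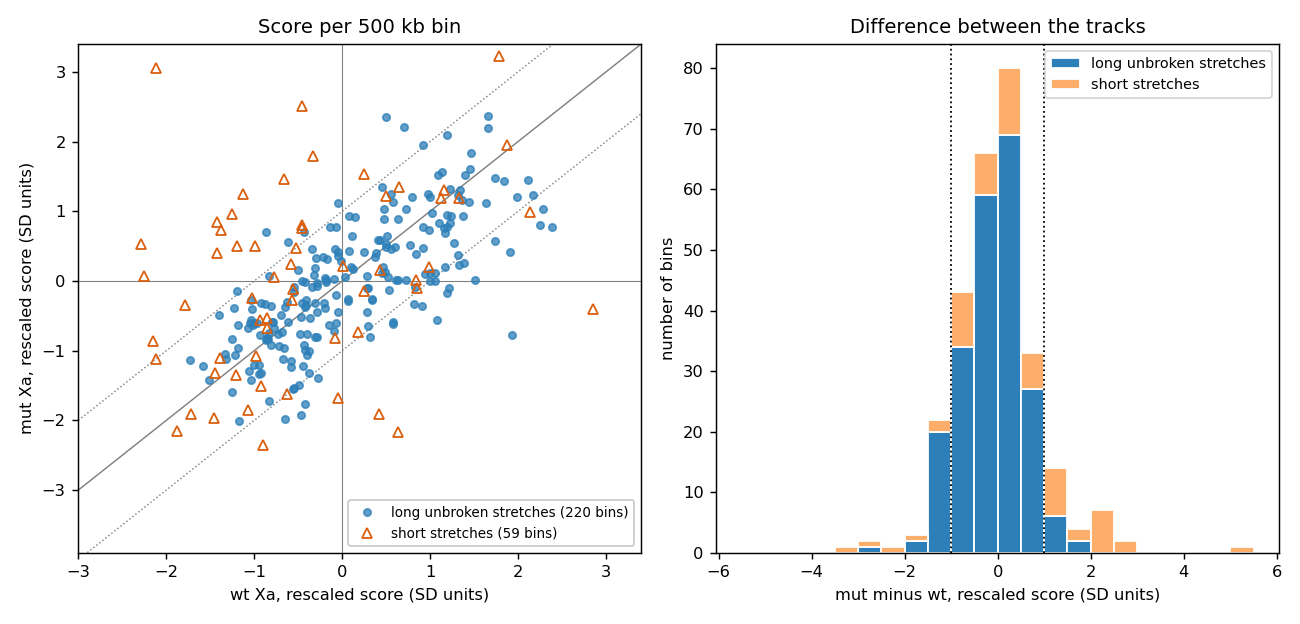
Left, mut against wt rescaled Xa score (SD units) for each of 279 bins, with bins of long stretches as blue circles (220) and of short stretches as orange triangles (59), the solid line of equal scores and dotted lines at a difference of 1. Right, number of bins by mut minus wt score in steps of 0.5, with the bins of the short stretches stacked on those of the long ones. The blue points keep to the diagonal (r = 0.72), and the bins above the upper dotted line in the left panel are mostly of short stretches, 20 of 28.

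Reads not split by allele were not used to choose the bins, although they contain the Xa reads and so are not independent of them. They also contain the Xi reads, and the part of each X in an unsplit difference was not tested. Rescaled over the same bins, the unsplit score was lower in mut at 21 of the 23 long-stretch bins called later (median difference -0.41, from -1.77 to 0.04), against 115 of all 220 long-stretch bins. It was higher in mut at 5 of the 8 called earlier (median 0.19), against 105 of 220. In the short stretches it was lower at 5 of the 6 bins called later (median -0.40), against 30 of 59, and higher at 11 of the 20 called earlier (median 0.03), against 29 of 59. The differences of the Xa track and of the unsplit track correlated at r = 0.36 over the 220 long-stretch bins and at 0.29 over the 59 short-stretch bins. The unsplit score was thus lower at most of the later bins in both kinds of stretch, and at the earlier bins of the short stretches its sign was split nearly as over all bins.

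Runs of at least 2 neighbouring changed bins were few. The later bins formed 3 runs, with 7 bins, and 22 single bins, and all 3 runs lay in long stretches. The earlier bins formed 4 runs, with 8 bins, and 20 single bins, and none of the 4 runs lay in a long stretch. The largest single differences in the long stretches were at 96 to 96.5 Mb, where the bin of Msn, which encodes moesin, scored 1.93 in wt and -0.78 in mut, and at 163.5 to 164 Mb, where the bin of Grpr, a gastrin-releasing peptide receptor, scored 0.49 in wt and 2.35 in mut. The unsplit differences at these bins were -0.09 and 0.27.

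**Figure D4:**
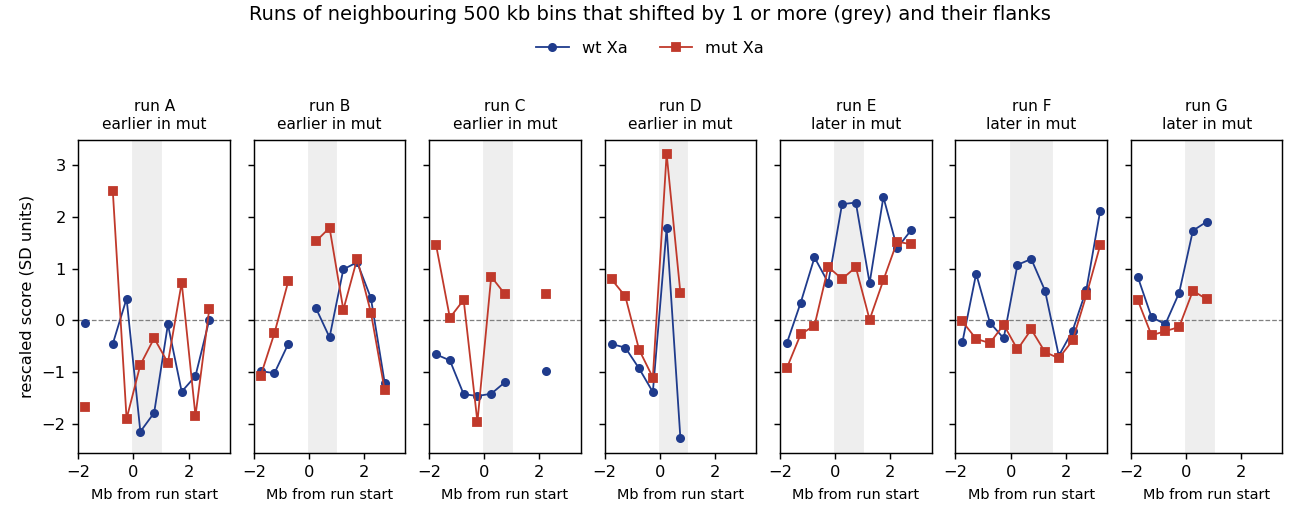
Rescaled Xa score (SD units, y axis) of wt (blue circles) and mut (red squares) in the 7 runs of neighbouring bins that differed by 1 or more (grey) and in the 4 bins on each side, against the distance in Mb from the run's start. The letters A to G follow the order along the chromosome, and gaps are dropped bins or the chromosome's end. In run F (later in mut) the bins next to the run lie close together in wt and mut, and in runs A, C and D (earlier in mut) the tracks also jump from bin to bin outside or within the run.

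The first run that was later in mut lay at 140.5 to 141.5 Mb. Its 2 bins scored 2.25 and 2.28 in wt and 0.80 and 1.03 in mut, a mean difference of -1.35 with an unsplit difference of -0.75. The run stayed early in both genotypes, and it lies within the shared early domain of 140 to 144 Mb. It holds the starts of Tsc22d3, Mid2, a microtubule-associated ubiquitin ligase, Tex13b, Vsig1 and Psmd10, a proteasome assembly chaperone, and in its second bin those of Col4a6 and Col4a5, which encode chains of the type IV collagen of basement membranes.

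The second, at 156.5 to 158 Mb, was the only one of the 3 that crossed from early to late. Its 3 bins scored 1.08, 1.19 and 0.58 in wt and -0.56, -0.17 and -0.61 in mut, a mean difference of -1.40. The bins on both sides, at -0.35 and -0.68 in wt and -0.08 and -0.73 in mut, were late in both genotypes. The unsplit difference over the run was -0.05. The genes are Phex, shown above by its promoter, Sms (spermine synthase), Mbtps2 (a protease that activates sterol-sensing transcription factors), Yy2, Smpx and Klhl34.

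The third, at 169 to 170 Mb, was the last kept part of the chromosome. Its 2 bins scored 1.74 and 1.91 in wt and 0.57 and 0.41 in mut, a mean difference of -1.33 with an unsplit difference of -1.14, the largest of the 7 runs. It holds Amelx (the enamel protein amelogenin), Hccs, which attaches haem to cytochrome c, Mid1, a microtubule-associated ubiquitin ligase, and 4933400A11Rik. The deposited Xi scores of the same run were 0.84 in wt and 1.04 in mut.

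The 4 runs that were earlier in mut were all in short stretches of 6 to 9 bins. At 51.5 to 52.5 Mb the bins scored 0.24 and -0.33 in wt and 1.53 and 1.79 in mut, a mean difference of 1.70. This was the run of the 4 with the highest share of unique 31-base words (91.1%) and the only one with an unsplit difference above 0.5, at 0.99. It holds Hs6st2, which adds sulfate to heparan sulfate chains, Usp26, 1700080O16Rik and Gpc4, a glypican that carries such chains. At 122 to 123 Mb, the run of Nap1l3, the bins scored -1.42 and -1.20 in wt and 0.85 and 0.51 in mut, with an unsplit difference of 0.09. The bin before it scored -1.46 in wt and -1.96 in mut.

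The other two had few or no genes. At 128.5 to 129.5 Mb, with no gene start, the bins scored 1.78 and -2.29 in wt and 3.23 and 0.53 in mut and both tracks dropped steeply from the first bin to the second. At 43.5 to 44.5 Mb, with Tex13c1 and Dcaf12l2, the bins scored -2.15 and -1.79 in wt and -0.86 and -0.34 in mut, late in both. The unsplit difference was 0.26 in the first of these runs and close to 0 in the second. Their shares of unique 31-base words were 76.8 and 73.9%.

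Gene lists show which kinds of genes lie in the shared and in the parted bins. A gene was given the score of the bin that holds its start, so that genes of 1 bin share a value. Of all 831 genes in kept bins 510 lay in shared early and 139 in shared late bins, with median scores of 0.61 in wt and 0.47 in mut and a median difference of -0.08. By the limit of 1, 85 (10.2%) lay in bins later in mut and 66 (7.94%) in bins earlier in mut.

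Housekeeping genes, whose products most cells need, had the highest median of the 5 lists in wt, and in mut their median was close to that of the replication list. Of 38 genes in 24 bins 34 lay in shared early bins, with medians of 1.29 in wt and 1.08 in mut and a median difference of -0.27. The bin of Pgk1 scored 1.65 in wt and 2.36 in mut, and the bin that holds G6pdx, the first enzyme of the pentose phosphate pathway, and Emd, the nuclear envelope protein emerin, scored 1.66 and 2.19. At the other end Rbmx, an RNA-binding protein gene, scored -1.18 and -0.63, and Fundc1, a receptor for removal of mitochondria, -0.73 and -0.76. The list had 5 genes in bins later in mut (13.2%, against 10.2% over all genes). It had none in bins earlier in mut, against 7.94% over all genes. The 5 were Sms (1.19 to -0.17), Psmd10 (2.25 to 0.80), Mbtps2 (0.58 to -0.61), and Hnrnph2 and Gla, which share a bin (1.32 to 0.23).

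Genes of replication and chromosome structure were early as well. Of 18 genes in 17 bins 15 lay in shared early bins, with medians of 1.09 in wt and 1.08 in mut. Pola1, the catalytic subunit of the polymerase that primes DNA synthesis, lay in a bin of 0.97 in wt and 1.25 in mut. The bin with the start of Hdac8, a histone deacetylase that acts on cohesin, scored 1.51 in wt and 0.01 in mut. Most of Hdac8 lies in the bin before, which scored 1.63 in wt and 1.12 in mut. The bin of Smarca1 scored 2.14 in wt and 0.99 in mut. The bin shared by Smc1a, a cohesin subunit, and Kdm5c, a histone H3 lysine demethylase, went the other way, with 0.92 in wt and 1.96 in mut. Kdm6a was the gene of this list in a shared late bin, with -0.39 and -0.76.

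Of 20 fibroblast and matrix genes in 19 bins 13 lay in shared early bins (65%, against 61.4% over all genes) and 1 in a shared late bin, with medians of 0.96 in wt and 0.75 in mut and a median difference of -0.39. The starts of 6 lay in bins later in mut, against 10.2% over all genes: Msn, Col4a5 and Col4a6 of the same bin, Tsc22d3 of the neighbouring bin, Sat1 (0.90 to -0.36) and Mid1 (1.91 to 0.41). The starts of 3 lay in bins earlier in mut, against 7.94% over all genes, those of Gpc4 (-0.33 to 1.79), Srpx2 (0.71 to 2.21) and Fhl1 (-0.44 to 0.70). The bin of Flna, the actin cross-linker filamin A, is that of G6pdx and was early in both genotypes.

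Neuronal genes and genes of the germline or of multicopy families were spread over early and late bins. Of 29 neuronal genes in 28 bins 13 lay in shared early and 9 in shared late bins, with medians of 0.31 in wt and 0.01 in mut. In bins later in mut lay 2 (6.90%, against 10.2% over all genes), and in bins earlier in mut 3 (10.3%, against 7.94%). The bin of Fgf13, a regulator of sodium channels, scored -1.52 in wt and -1.42 in mut, and that of Il1rapl1 -0.79 and -0.58. The largest differences were those of Tenm1, a teneurin (0.42 to -1.90), and Pcdh11x, a protocadherin (-0.66 to 1.46), both in short stretches, and of Grpr. Tenm1 also extends into the bin at 42.5 to 43 Mb, which went the other way (-0.45 in wt, 2.50 in mut). Of 27 germline and multicopy genes in 22 bins 12 lay in shared early and 6 in shared late bins, with medians of 0.31 and 0.25. In bins later in mut lay 4 (14.8%, against 10.2% over all genes), and in bins earlier in mut 4 (14.8%, against 7.94%). Mageb16 (-0.83 and -1.73) and Mageb2 (-1.06 and -1.30) were among its latest. The homeobox genes Rhox5, Rhox6 and Rhox9 share a bin that scored -1.12 in wt and 1.25 in mut, in a short stretch of 3 bins.

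**Figure D5:**
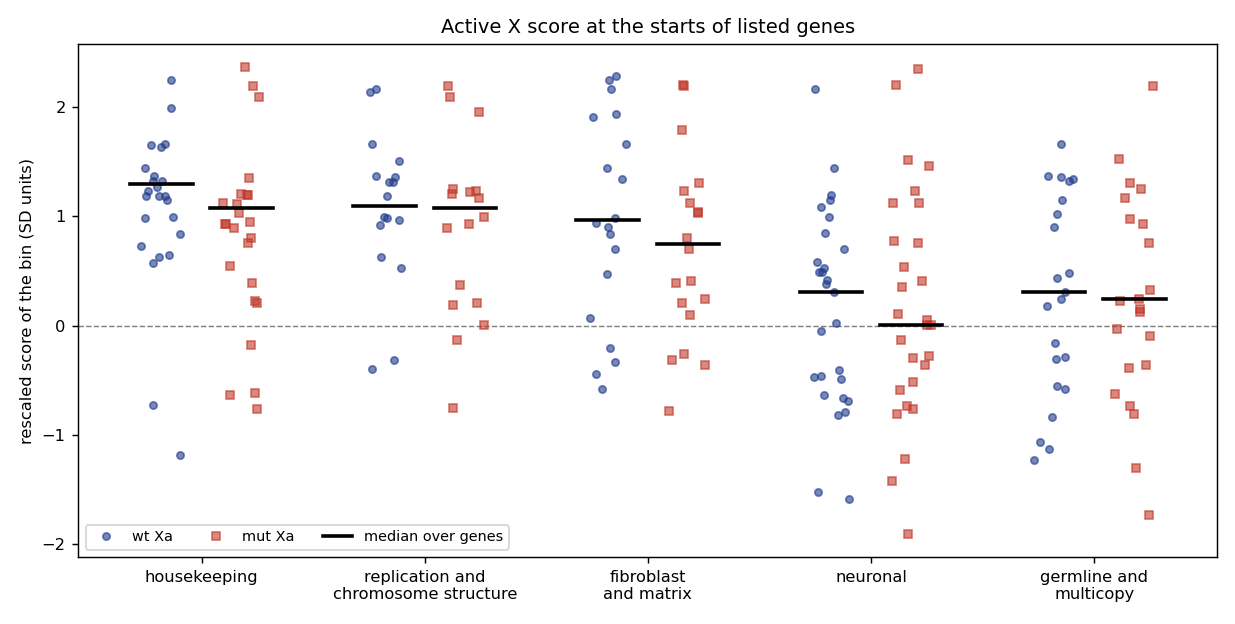
Rescaled Xa score (SD units, y axis) of the bins that hold the starts of the genes of 5 lists (x axis), in wt (blue circles) and mut (red squares), with 1 point per bin, spread sideways at random, and a black line at the median over genes. Housekeeping and replication genes sit mostly above 0 in both genotypes (medians 1.29 and 1.08, and 1.09 and 1.08), and neuronal and germline genes lie on both sides of 0.

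The Xi of the same bins is given for comparison. At the 98 shared early bins of the Xa the median deposited Xi score was -0.86 in wt and -0.38 in mut, and at the 114 shared late bins -1.07 in wt and -1.37 in mut. At the 23 long-stretch bins that were later on the mut Xa it was -0.69 in wt and -0.91 in mut, and at the 8 that were earlier it was -0.85 in wt and 0.00 in mut, beside -0.97 and -0.93 over all 220 long-stretch bins. Whether the Xa and Xi scores were standardised together is not given in the sources used here, so their levels are set side by side without a comparison.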

How the data were processed

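Allele-specific Repli-seq scores of chromosome X were analysed for wt and SmcHD1 mut MEFs. The authors mapped paired reads with Bowtie2 to mm10, per the submitters' processing notes, sorted the alignments by parental genome, and counted them by 500 kb bin. The deposited score of a bin is a Z-score of S-phase over G1-phase reads, after the authors' correction for read number. Software versions, the bins that entered the Z-score and the transformation of the unsplit score are not given in the sources used here. Replicates were joined before deposit. The labels name 4 samples per genotype, 2 of each phase, and sample titles with a 2 after the phase were read as second replicates. The deposited scores carry no read counts, so depth and counting error are unknown.

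Both Xa tracks were joined by bin start, filtered and rescaled as described above. Early and late were split at 0, shared domains needed 3 bins, borders were called on a running mean of 3 bins in stretches of at least 6 bins, and a changed bin differed by 1 or more. Genes came from GENCODE M21 and upstream sequences from RefSeq (GRCm38.p6), cut where they passed the GENCODE start of the gene. Named genes were those of the runs with the largest mean difference, of the 3 highest and 3 lowest shared domains, of the 4 steepest shared borders and, of 5 lists, the earliest, the latest and the most different. Genes named to spell out a small count, the domains with the most genes, the greatest length and the largest increase, and the largest single bins were chosen after their values were seen. Of the listed genes Mageb3 was not matched in the annotation, and Ndufa1, Slc25a5, Stag2, Diaph2, Rhox1 and Slx lay in dropped bins. Bins, lists and rules were chosen with earlier results of these data known. Xi and unsplit tracks were used only beside the Xa.

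Alternatives were other scalings, a limit of 2, long stretches alone, bins passing on all 4 allele tracks, smoothing, a median split and other limits for changed bins, borders and gene-rich bins. The analysis ran in Python 3.11.15 (numpy 2.4.6; pandas 2.3.3; scipy 1.17.1) with figures from matplotlib 3.10.9. The domain, border and change calls were tested on simulated tracks with known changes, and at the highest simulated noise, where the scatter between neighbours was close to that of the long stretches and below that of the short ones, unchanged bins were called as well.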

Additional observations from a re-analysis of the deposited data

How the results depend on the processing

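No paired analysis was possible because same-genotype libraries were joined into 1 score per bin before deposit, and for the same reason no replicate could be left out. Over 8 results and 12 settings, 46 of 66 alternative values were labelled the same as the main value, which for counts meant within 1.5 times. The other 20 were 18 labelled moved and 2 reversed in sign, and their cause was not tested. Some values labelled moved lay close to the main one, such as -0.0915 beside -0.0911 below. The correlation of wt with mut (0.56) was 0.550 with rank-based scores, 0.622 with scores limited to -2 to 2, 0.723 in the long stretches and 0.663 with a running mean of 3 bins. Shared late domains numbered 17 in place of 11 with the scores as deposited. Bins later in mut numbered 48 with the scores as deposited, 19 with the running mean, 51 at a limit of 0.75 and 7 at 1.5. Beside the 48, 27 were earlier, and with median and median absolute deviation 43 were later and 22 earlier, so that the even split of 29 and 28 depends on the scaling. Bins earlier in mut numbered 17 when the long stretches were rescaled alone, 43 at 0.75 and 14 at 1.5. The mean change of gene-rich minus gene-poor bins (-0.0911) was -0.185 as deposited, -0.0731 with median and median absolute deviation, -0.0436 with rank-based scores, -0.0559 with the limit of 2, -0.0915 over bins passing on all 4 allele tracks and -0.133 with the running mean. It reversed to 0.0635 in the long stretches and to 0.221 with gene-rich bins defined by 1 gene start. Without replicates or read counts, differences can be set only against the scatter between neighbouring bins, and 1 clone per genotype carries every difference.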
